A study of Homo sapiens with 12 samples.

Results

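The genes of oxidative phosphorylation, the mitochondrial pathway that makes most of the ATP of a respiring cell, were described in human embryonic stem cells exposed to FGF8 and WNT3A. Members were chosen by gene symbol: the mitochondrially encoded subunits and the nuclear symbols that name a subunit of 1 of the 5 complexes. Rows sharing a symbol were summed. The complex of a nuclear member was taken from its symbol, so NDUFA4, since described as a complex IV subunit, was counted with complex I. The rule found 135 of 35940 symbols, made up of 13 mitochondrially encoded genes, 77 nuclear subunit genes and 45 nuclear pseudogenes whose names begin like those of ATP synthase subunits. After a filter on low counts, 13 mitochondrial genes, 76 nuclear subunit genes and 1 pseudogene entered the tests.

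All libraries came from the ESI017 SOX2::mCitrine line, an embryonic stem cell line in which a fluorescent protein reports SOX2, a transcription factor of pluripotent and neural cells. Colonies on micropatterned glass were kept for 3 days in N2B27, a defined medium without serum. The control group (n = 2) received N2B27 alone, and its labels name no sort gate. The treated colonies received FGF8 at 200 ng/ml with WNT3A at 100, 300 or 1000 ng/ml and were sorted into SOX2-positive and SOX2-negative cells, with 2 libraries for each gate at 100 and at 1000 ng/ml and 1 for each gate at 300 ng/ml. The second set was a biological repeat of all conditions but 300 ng/ml, so p-values measure the spread between repeats of 1 cell line. The series title asks how endogenous Nodal changes the interpretation of WNT, and no group here is labelled with a change of Nodal.

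Complexes I to IV pass electrons from NADH and succinate to oxygen, and complexes I, III and IV pump protons across the inner mitochondrial membrane. Complex V, ATP synthase, uses the proton gradient to make ATP. Complex II is built from nuclear genes alone, whereas complexes I, III, IV and V join nuclear subunits with subunits encoded by the mitochondrial genome. Mitochondrial mRNAs are cut from long transcripts of either DNA strand, which a dedicated RNA polymerase makes. Their supply is thus governed apart from that of the nuclear subunit mRNAs. Pluripotent stem cells are known to rely strongly on glycolysis, and respiration is known to change as they differentiate.

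The 12 libraries held 16474856 to 28079048 estimated counts. The reporter gene SOX2 was at 652 and 676 CPM (a gene's count relative to the TMM-adjusted size of its library) in control, at 418 to 467 CPM in the 5 SOX2-positive libraries and at 1.86 to 5.99 CPM in the 5 SOX2-negative libraries, so each sorted library matched its label. The 7 pluripotent markers summed to 1772 and 1662 CPM in control, 2789 to 3753 CPM in SOX2-positive and 690 to 1259 CPM in SOX2-negative libraries. The 6 endoderm markers summed to 4.02 and 7.62, 14.3 to 70, and 892 to 1586 CPM in the same order, and the 6 mesoderm markers to 15.8 and 12.2, 7.13 to 50.9, and 89.8 to 292 CPM. The 6 neural markers summed to 821 and 943, 58.8 to 151, and 25.3 to 96.4 CPM. In SOX2-negative libraries most of this sum was OTX2, at 24.3 to 93.7 CPM. The 6 blood and endothelial markers summed to 9.25 and 11, 97.4 to 191, and 28.8 to 282 CPM. Most of that sum was KDR, at 96.2 to 190 CPM in SOX2-positive and 20.1 to 272 CPM in SOX2-negative libraries. PECAM1 and CDH5 reached at most 1.14 and 0.708 CPM in SOX2-positive libraries. In SOX2-negative libraries they were at 4.89 to 5.98 and 2.69 to 3.7 CPM. The 5 cardiac markers summed to 3.76 and 2.16, 3.36 to 6.38, and 9.04 to 19.9 CPM. SOX17, an endoderm factor, was at 0 in both control libraries. The gates thus compare cell populations of different kinds. In bulk RNA, fewer cells of a type and less RNA per cell cannot be told apart.

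The mitochondrially encoded members are small, tightly packed genes, and their sequence shows 2 features that bear on counting. First, 6 of the 13 reading frames end before a whole stop codon, which in these mRNAs is completed by the poly-A tail that the library preparation also selects on. The last bases of 4 of these frames and of MT-CO1, which ends in a whole stop codon, are printed from GENCODE 29 on GRCh38, 5′ to 3′, with the bases of the stop in capitals:

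MT-ND1: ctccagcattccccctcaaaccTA
MT-CO3: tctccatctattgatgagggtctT
MT-ND4: acatcattaccgggttttcctctT
MT-CYB: aaaacaaaatactcaaatgggccT
MT-CO1: gaacccgtatacataaaatctAGA

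MT-ND1 lies at positions 3307 to 4262 of the mitochondrial chromosome, MT-CO1 at 5904 to 7445, MT-CO3 at 9207 to 9990, MT-ND4 at 10760 to 12137 and MT-CYB at 14747 to 15887, all on the plus strand. MT-ND6, at 14149 to 14673, is the 1 member on the minus strand. Second, some neighbours overlap on the same strand, so reads there cannot be given to 1 gene by position. MT-ATP8 and MT-ATP6 share the 46 bases from 8527 to 8572, which are 22.2% of MT-ATP8, and MT-ND4L and MT-ND4 share the 7 bases from 10760 to 10766. MT-ATP6 and MT-CO3 share the single base at 9207. The shared bases of the first 2 pairs are printed with the start codon of the second gene in capitals, for the MT-ND4 pair with the 21 bases before it:

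MT-ATP8 and MT-ATP6: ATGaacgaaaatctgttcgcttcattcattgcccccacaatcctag
MT-ND4L and MT-ND4: acataacctaaacctactccaATGctaa

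The values of MT-ATP8 and MT-ND4L therefore depend on how the counting divided reads with the longer neighbour.

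Per length of transcript, the mitochondrial mRNAs were far more abundant than the nuclear ones. Mean level was divided by the length of the longest annotated coding transcript, and the median over genes was 2477 CPM per kb for the 13 mitochondrial members and 47.4 CPM per kb for the 76 nuclear members, a 52.3-fold difference. With the median length of each gene's coding transcripts, a setting chosen after seeing the data, the ratio was 29-fold, and with the union of annotated exons it was 91.4-fold. Among mitochondrial genes MT-CO1, the catalytic subunit of complex IV, stood highest at 9316 CPM per kb, followed by MT-CO3 at 6432, MT-CO2 at 6037, MT-ATP6 at 4838 and MT-ND4 at 3440 CPM per kb. MT-ND5 (1030), MT-ND4L (862), MT-ND6 (667) and MT-ATP8 (317 CPM per kb) were the lowest. The strand setting of the counts is not given, so reads of MT-ND6, on the minus strand, cannot be told from antisense reads. ATP5F1B, the catalytic beta subunit of complex V, led the nuclear members at 374 CPM per kb. By complex, the nuclear medians were 40.1 CPM per kb for I, 30.4 for II, 49.8 for III, 122.9 for IV and 81.7 for V. With the median transcript length these became 54, 56.3, 87.3, 178 and 121.5 CPM per kb, so complexes IV and V stayed above the others while I and II changed places.

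The 45 pseudogenes were close to absent, with a highest mean of 0.108 CPM. The single one that was tested, ATP5PDP4, changed by a log2 fold change of 2.76 ± 2.04 (SE) between the gates, an error too wide to show a direction. ATP5MGL, an ATP synthase subunit copy on chromosome 22, reached at most 0.0536 CPM and was not tested. NDUFA6 and NDUFA3 each stand on several identifiers, which were summed.

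In each library, the CPM of the mitochondrial members was summed. The sums were 42395 and 28720 CPM in control replicates 1 and 2. SOX2-positive libraries gave 45374 and 54904 CPM at 100 ng/ml, 43730 CPM at 300 ng/ml, and 46134 and 51358 CPM at 1000 ng/ml. SOX2-negative libraries gave 37119 and 31167 CPM at 100 ng/ml, 43482 CPM at 300 ng/ml, and 45287 and 42565 CPM at 1000 ng/ml. All 5 SOX2-positive sums were thus above both control sums, and the SOX2-negative sums lay on either side of control replicate 1. At the replicated doses the highest SOX2-negative sum lay just under the lowest SOX2-positive one, and with the 300 ng/ml libraries the gates overlapped.

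The summed nuclear members moved less, with 1 exception. Control gave 7060 and 7640 CPM. SOX2-positive libraries lay between 6421 and 7412 CPM. SOX2-negative libraries gave 7018 and 11191 CPM at 100 ng/ml, 6399 CPM at 300 ng/ml, and 6217 and 5641 CPM at 1000 ng/ml. Replicate 2 of the SOX2-negative cells at 100 ng/ml stood above the other 11 libraries, and replicate 2 at 1000 ng/ml was the lowest. The groups overlapped in every pairing of control, SOX2-positive and SOX2-negative.

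**Figure D1:**
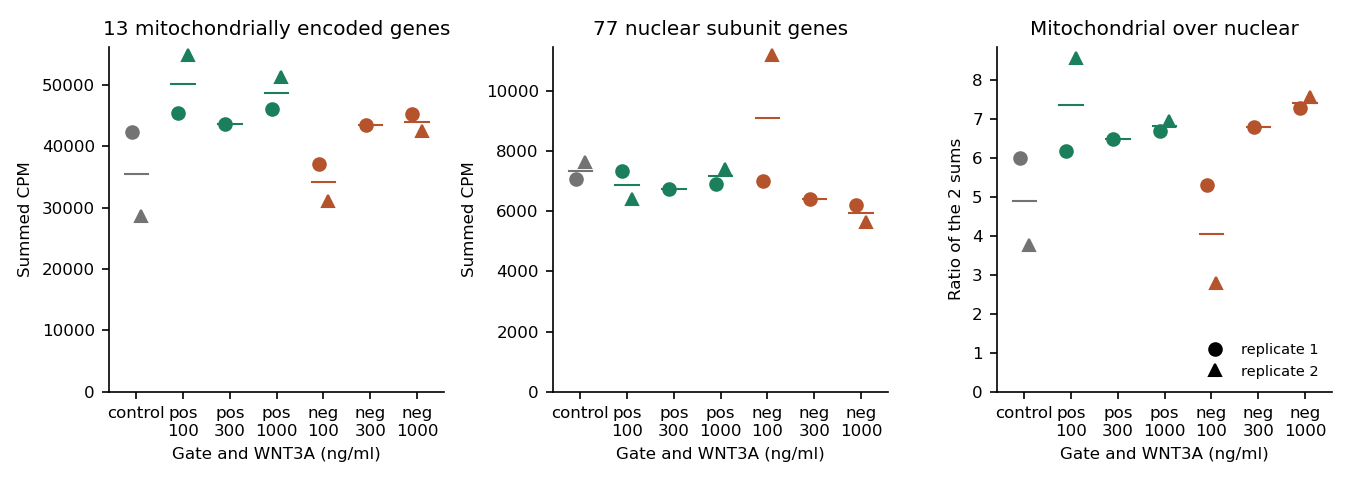
Summed CPM of the 13 mitochondrially encoded genes, summed CPM of the 77 nuclear subunit genes and the ratio of the sums, for each library (circles replicate 1, triangles replicate 2) by gate and WNT3A dose, with horizontal bars at group means. The nuclear sum of 11191 CPM and the ratio of 2.79 in replicate 2 of the SOX2-negative cells at 100 ng/ml lie away from the other libraries.

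The ratio of mitochondrial to nuclear sums was 6.01 and 3.76 in control, 6.17, 8.55, 6.48, 6.68 and 6.93 in SOX2-positive libraries, and 5.29, 2.79, 6.8, 7.29 and 7.55 in SOX2-negative libraries, each in order of dose and replicate. The log2 ratio was lower by 0.40 in SOX2-negative than in SOX2-positive cells, about the pooled SD between replicates of 0.39, and this difference was -0.63 to -0.17 with 1 library left out, the latter without replicate 2 of the SOX2-negative cells at 100 ng/ml. It was higher by 0.57 in SOX2-positive cells than in control and by 0.17 in SOX2-negative cells than in control, comparisons that share the control libraries. The differences from control ranged from 0.23 to 0.90 and from -0.17 to 0.50 when 1 library was left out, so the second changed sign. From 100 to 1000 ng/ml the log2 ratio differed by -0.09 in SOX2-positive and by 0.95 in SOX2-negative cells, the latter falling to 0.49 or rising to 1.41 with a library left out. No test was made on these sums.

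The library that stood apart, replicate 2 of the SOX2-negative cells at 100 ng/ml, is described here because it enters most of the comparisons. It held the highest CPM of the 12 libraries for 63 of 76 nuclear members and the lowest for 3, and the lowest CPM for 5 of 13 mitochondrial members. Against replicate 1 of its group, 71 of 76 nuclear members were higher, with a median log2 difference of 0.67, while 11 of 13 mitochondrial members were lower, with a median of -0.57. The range among nuclear members ran from -0.67 for NDUFA5 to 1.5 for ATP5F1D, the delta subunit of ATP synthase. MT-ND4L was at 35.3 CPM in this library against 208 CPM in replicate 1, and MT-ATP8 at 25.8 against 60 CPM. The cytosolic ribosomal protein genes, another family of short mRNAs, summed to 95916 CPM there against 41757 to 74185 CPM in the other libraries.

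Within this pair of replicates the difference went with transcript length and base composition. The median log2 difference was 0.80 for the 31 nuclear members under 1 kb, 0.67 for the 32 of 1 to 3 kb and 0.46 for the 13 of 3 kb and over. Over all genes with a length, the medians were 0.43, 0.29 and -0.34. Across the 76 nuclear members Pearson's r was -0.36 with log10 length and 0.64 with GC content, as a description across genes of a single pair of libraries, which came from separate repeats with totals of 16474856 and 26033016 estimated counts. Over 16888 genes the same values were -0.28 and 0.44. The part of length and GC content in the results was not tested. The counts of members called and their medians are given below with and without this library where it enters the comparison.

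**Figure D2:**
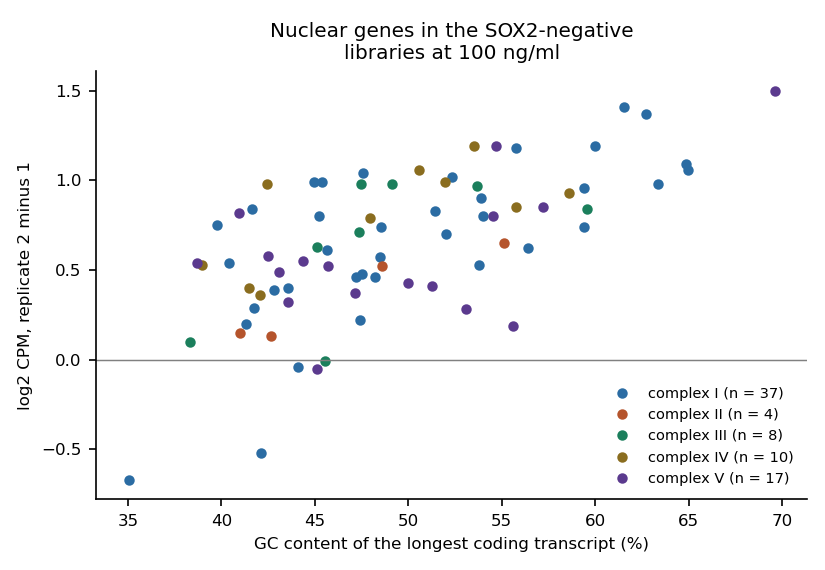
Difference in log2 CPM between replicates 2 and 1 of the SOX2-negative cells at 100 ng/ml against GC content of the longest coding transcript, 1 point for each of 76 nuclear members, coloured by complex. Points rise from left to right, from NDUFA5 at -0.67 to ATP5F1D at 1.5.

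The first comparison asked how SOX2-negative cells differed from SOX2-positive cells, as an average of 100 and 1000 ng/ml. Of the 13 mitochondrial and 76 nuclear members, 4 passed edgeR's quasi-likelihood test with Benjamini-Hochberg adjusted p under 0.05 (4.49%). Among all 17047 genes tested, 24% passed, so the share among the members was below the background. ATP5F1E and NDUFC2 rose in SOX2-negative cells and NDUFA5 and MT-CO1 fell, each by less than 2-fold. All 13 mitochondrial members had log2 fold changes below 0, with a median of -0.40, and 51 of 76 nuclear members lay above 0, with a median of 0.11. The median of all genes was 0.01.

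MT-CO1 was the 1 mitochondrial gene called. Its level was 12830 and 9348 CPM in control. In SOX2-positive cells it was 15010 and 20490 CPM at 100 ng/ml, 14680 CPM at 300 ng/ml, and 15470 and 19510 CPM at 1000 ng/ml. In SOX2-negative cells it was 11720 and 10360 CPM at 100 ng/ml, 13540 CPM at 300 ng/ml, and 14660 and 14750 CPM at 1000 ng/ml. SOX2-negative libraries at the replicated doses all lay below the SOX2-positive ones, by a narrow margin at 1000 ng/ml. The log2 fold change was -0.47 ± 0.15 (SE, edgeR adjusted p = 0.041). The call was lost without replicate 2 of the SOX2-negative cells at 100 ng/ml, and it held in 5 of 10 fits that each left out 1 library (edgeR adjusted p 0.021 to 0.19).

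MT-CO1 took 30.3% to 38% of the mitochondrial sum, with a median of 33.2%, so it weighs most in that sum. The other complex IV genes of the mitochondrial genome did not pass. MT-CO3 had a log2 fold change of -0.34 ± 0.15 (edgeR adjusted p = 0.12) and MT-CO2, which carries the site that takes electrons from cytochrome c, one of -0.09 ± 0.15 (edgeR adjusted p = 0.7). MT-CO2 was at 3917, 3687, 5232 and 3911 CPM in the SOX2-negative libraries at the replicated doses, which overlapped the 4249 to 4809 CPM of the SOX2-positive ones.

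Among the 7 mitochondrial genes of complex I, the NADH dehydrogenase, none passed. MT-ND5, a membrane subunit of the proton pump, was at 1947, 2868, 2023 and 2224 CPM in the SOX2-positive libraries at the replicated doses and at 1463, 777, 1909 and 1892 CPM in the SOX2-negative ones. These did not overlap, yet its log2 fold change of -0.63 ± 0.24 had an edgeR adjusted p of 0.079, and was -0.44 without the library that stood apart. MT-ND1, another membrane subunit, had -0.47 ± 0.21 (edgeR adjusted p = 0.13) and passed with the replicate as a block in the model. MT-ND4L had the lowest estimate of the mitochondrial members and the widest error, -0.77 ± 0.46 (edgeR adjusted p = 0.26), and -0.39 without that library. MT-ND4 (-0.40), MT-ND2 (-0.27) and MT-ND3 (-0.10) also missed the threshold, as did MT-ND6 at -0.45 ± 0.22 (edgeR adjusted p = 0.18).

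MT-CYB, the cytochrome of complex III, had a log2 fold change of -0.11 ± 0.17. The mitochondrial genes of complex V, whose products sit in its membrane part, had -0.20 ± 0.15 for MT-ATP6 and -0.46 ± 0.30 for MT-ATP8. Besides these 13 genes, 6 nuclear copies of mitochondrial genes were abundant enough to test, and none was called. Such copies summed to 91.2 to 227 CPM in all libraries, far under the mitochondrial sums.

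**Figure D3:**
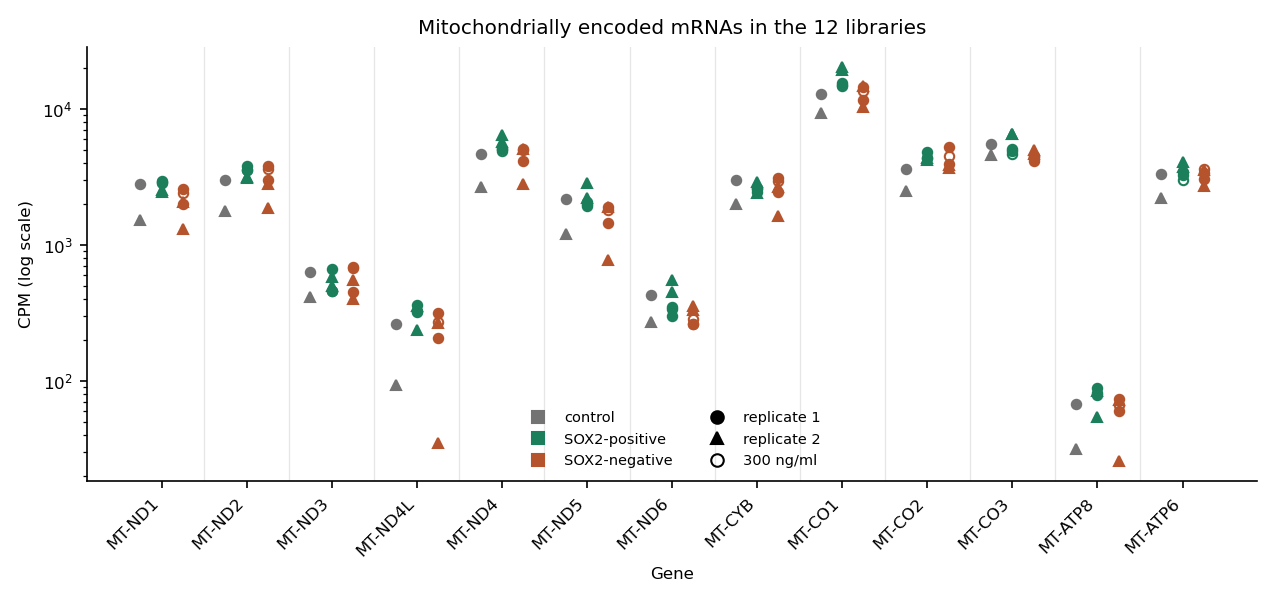
CPM on a log scale of the 13 mitochondrially encoded genes in the 12 libraries, with control in grey, SOX2-positive in green and SOX2-negative in orange (circles replicate 1, triangles replicate 2, open circles 300 ng/ml). MT-CO1 is highest in every library, and the lowest MT-ND4L point, 35.3 CPM, is replicate 2 of the SOX2-negative cells at 100 ng/ml.

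ATP5F1E encodes the epsilon subunit of the rotor stalk of ATP synthase (chromosome 20, 59025467 to 59032382, minus strand). Its level was 68.9 and 59.3 CPM in control. SOX2-positive libraries gave 50.3 and 32.5 CPM at 100 ng/ml, 42.9 CPM at 300 ng/ml, and 46.2 and 59.1 CPM at 1000 ng/ml. SOX2-negative libraries gave 81.6 and 119 CPM at 100 ng/ml, 64.9 CPM at 300 ng/ml, and 58.9 and 60.4 CPM at 1000 ng/ml. At 1000 ng/ml the values of the gates met, with replicate 2 of the SOX2-positive cells above replicate 1 of the SOX2-negative cells. It rose by a log2 fold change of 0.73 ± 0.19, or 1.66-fold (edgeR adjusted p = 0.018), and was also called without replicate 2 of the SOX2-negative cells at 100 ng/ml. The call was lost in 3 of 10 fits that left out 1 library each, namely without replicate 2 of the SOX2-positive cells at 100 ng/ml, without replicate 1 of those at 1000 ng/ml or without replicate 2 of the SOX2-negative cells at 1000 ng/ml (edgeR adjusted p 0.0033 to 0.086).

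NDUFC2, an accessory subunit of the membrane arm of complex I (chromosome 11, 78068304 to 78080219, minus strand), was at 77.1 and 76.3 CPM in control. SOX2-positive libraries gave 70 and 56.9, 69.7, and 68.4 and 55.4 CPM at the rising doses, and SOX2-negative libraries 87.3 and 174, 80.4, and 84.8 and 74.6 CPM. All SOX2-negative libraries lay above all SOX2-positive ones. The log2 fold change was 0.70 ± 0.21, or 1.63-fold (edgeR adjusted p = 0.032). It held without either SOX2-negative library at 100 ng/ml and was lost in each of the other 8 fits that left out a library, the 2 controls included (edgeR adjusted p up to 0.13). Over these fits its log2 fold change stayed between 0.41 and 0.90.

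NDUFA5, an accessory subunit of the arm of complex I that binds NADH (chromosome 7, 123536997 to 123558255, minus strand), moved the other way. It was at 52.5 and 45.3 CPM in control. SOX2-positive libraries gave 58.6 and 57.4, 54.4, and 54.6 and 45.7 CPM, and SOX2-negative libraries 38.9 and 24.4, 34.9, and 36.6 and 40.3 CPM. The gates did not overlap. It fell by 0.63 ± 0.17 on the log2 scale, or 1.55-fold (edgeR adjusted p = 0.023), and was also called without replicate 2 of the SOX2-negative cells at 100 ng/ml. The call was lost without either SOX2-positive library at 100 ng/ml, without replicate 1 of the SOX2-positive or without replicate 1 of the SOX2-negative cells at 1000 ng/ml (edgeR adjusted p up to 0.080).

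By complex, 1 of 37 nuclear members of complex I rose and 1 fell (median log2 fold change 0.22), and 1 of 17 of complex V rose (median 0.01). None passed edgeR's test among the 4 of complex II (median -0.15), the 8 of complex III (median 0.19) and the 10 of complex IV (median 0.11). At an unadjusted p under 0.05 there were 1, 1 and 0 in complexes II, III and IV, beside 6151 of all 17047 genes. Complex II had 3 of 4 members below 0, and complexes I, III and IV had 27, 6 and 7 members above 0.

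**Figure D4:**
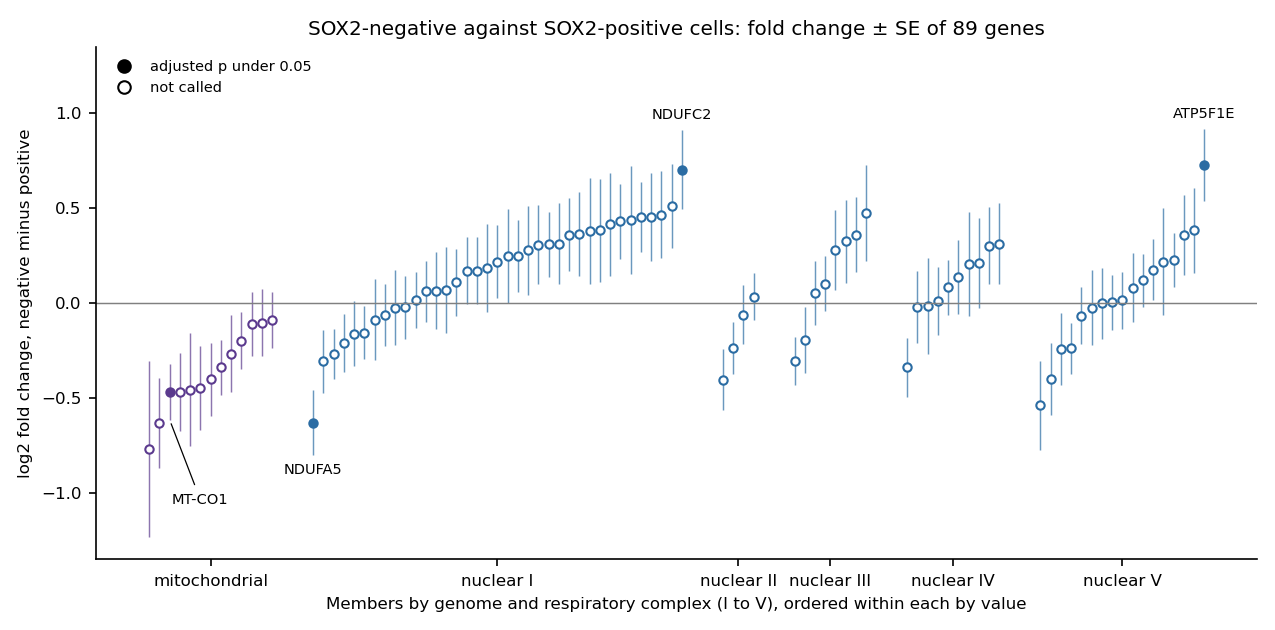
Log2 fold change of SOX2-negative against SOX2-positive cells with its standard error for the 13 mitochondrial and 76 nuclear members, ordered by value within genome and complex; filled points passed edgeR's test (adjusted p under 0.05). The mitochondrial points all lie below 0, and the 4 called genes are named.

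Without replicate 2 of the SOX2-negative cells at 100 ng/ml, which leaves 1 library in that group whose spread is taken to be like that of the others, 8 members were called, while 26% of all genes were. ATP5F1E, NDUFC2 and NDUFA5 were among them in the same directions. The other 5 were lower in SOX2-negative cells: ATP5F1B, ATP5MC1 and ATP5MC2 of complex V, SDHA of complex II and COX7B of complex IV. The nuclear median turned from 0.11 to -0.07, and the mitochondrial median was -0.28, with MT-CYB at 0.02 and the other mitochondrial members below 0. Without replicate 1 of that group in its place, 31 members were called, 22 higher and 9 lower, with medians of 0.26 and -0.47, and 40.1% of all genes were called. The number of calls and the sign of the nuclear median thus turned on which of these 2 libraries was kept.

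ATP5MC1, ATP5MC2 and ATP5MC3 encode the same c subunit of the ATP synthase ring with different targeting sequences. A difference between their changes was not tested. ATP5MC1 was at 36, 39.2, 33.1 and 40 CPM in the SOX2-positive libraries at the replicated doses, and at 23.5, 53.6, 18.7 and 15 CPM in the SOX2-negative ones. The 53.6 CPM belong to the library that stood apart. The log2 fold change of ATP5MC1 was -0.54 ± 0.24 (edgeR adjusted p = 0.13) with all libraries. Over the 10 fits that left out 1 library each it was -0.90 to -0.32, the former without the library that stood apart. ATP5MC2, the most abundant of these genes at 119 to 280 CPM, had -0.24, and ATP5MC3, at 98.4 to 212 CPM, had 0.00 to the second decimal. In the pairs of gates from the same colonies, each of them was lower in SOX2-negative cells in every pair but replicate 2 at 100 ng/ml.

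SDHA, the flavoprotein of complex II that oxidises succinate, followed the same course. It was at 80.3, 86.2, 90.4 and 94.1 CPM in SOX2-positive libraries at the replicated doses and at 61.2, 96.2, 53 and 58.4 CPM in SOX2-negative ones, with control at 62.2 and 67.4 CPM. The log2 fold change was -0.40 ± 0.16 (edgeR adjusted p = 0.099). Over the 10 fits that left out 1 library each it was -0.59 to -0.27, the former without the library that stood apart. SDHC, the membrane anchor and the most evenly expressed nuclear member, kept within 105 and 135 CPM over all 12 libraries and had a log2 fold change of 0.03 ± 0.12. SDHB, the iron-sulphur subunit, had -0.06 ± 0.16.

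The most and the least abundant nuclear member of each complex by mean CPM gave a like picture. In complex I, NDUFS5 ranged from 122 to 246 CPM and NDUFA3 from 4.97 to 16.1 CPM. In complex III, UQCRC1, a core subunit, ranged from 139 to 385 CPM and UQCRQ, a small membrane subunit, from 24.2 to 89.6 CPM. In complex IV, COX7C ranged from 166 to 341 CPM and COX7B from 40.6 to 66.8 CPM. In complex V, ATP5F1B ranged from 565 to 800 CPM. The maxima of NDUFS5, NDUFA3, UQCRC1, UQCRQ and COX7C fell in the same library, replicate 2 of the SOX2-negative cells at 100 ng/ml. None of these members was called between the gates with all libraries. The widest range of a tested nuclear member was that of NDUFA13, at 5.17-fold, and the narrowest that of SDHC, at 1.28-fold.

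SOX2-positive and SOX2-negative cells of a dose were sorted from the same colonies within each repeat, which gives 5 pairs of libraries, 300 ng/ml included. A gene was counted where SOX2-negative lay on the same side of SOX2-positive in all 5 pairs, as 37.8% of all genes did. Among mitochondrial members 5 of 13 were lower in all 5 pairs (MT-CO1, MT-CO3, MT-ND1, MT-ND5 and MT-ND6) and none was higher. Among nuclear members 6 of 76 were higher (ATP5F1E, ATP5MD, NDUFA6, NDUFB3, NDUFB6 and NDUFC2) and 3 were lower (NDUFA5, NDUFA10 and UQCRC2). The mitochondrial count was near the background share, and the nuclear count was below it.

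The size of the gate difference varied between pairs. For MT-CO1 the log2 differences were -0.36 and -0.98 at 100 ng/ml, -0.12 at 300 ng/ml, and -0.08 and -0.40 at 1000 ng/ml. For ATP5F1E they were 0.70 and 1.87, 0.60, and 0.35 and 0.03. For NDUFA5 they were -0.59 and -1.24, -0.64, and -0.58 and -0.18. Replicate 2 at 100 ng/ml gave the widest difference for each of these genes. UQCRC2, a core subunit of complex III, differed least between pairs, at -0.38 and -0.41, -0.25, and -0.22 and -0.21, and its log2 fold change of -0.31 ± 0.13 did not pass (edgeR adjusted p = 0.11).

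The ratio of mitochondrial to nuclear sums also differed mainly in that pair. The log2 ratio of SOX2-negative less that of SOX2-positive cells was -0.22 and -1.62 at 100 ng/ml, 0.07 at 300 ng/ml, and 0.13 and 0.12 at 1000 ng/ml. The summed nuclear members gave -0.07 and 0.80, -0.08, and -0.15 and -0.39. The summed mitochondrial members gave -0.29 and -0.82, -0.01, and -0.03 and -0.27, below 0 in all 5 pairs.

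**Figure D5:**
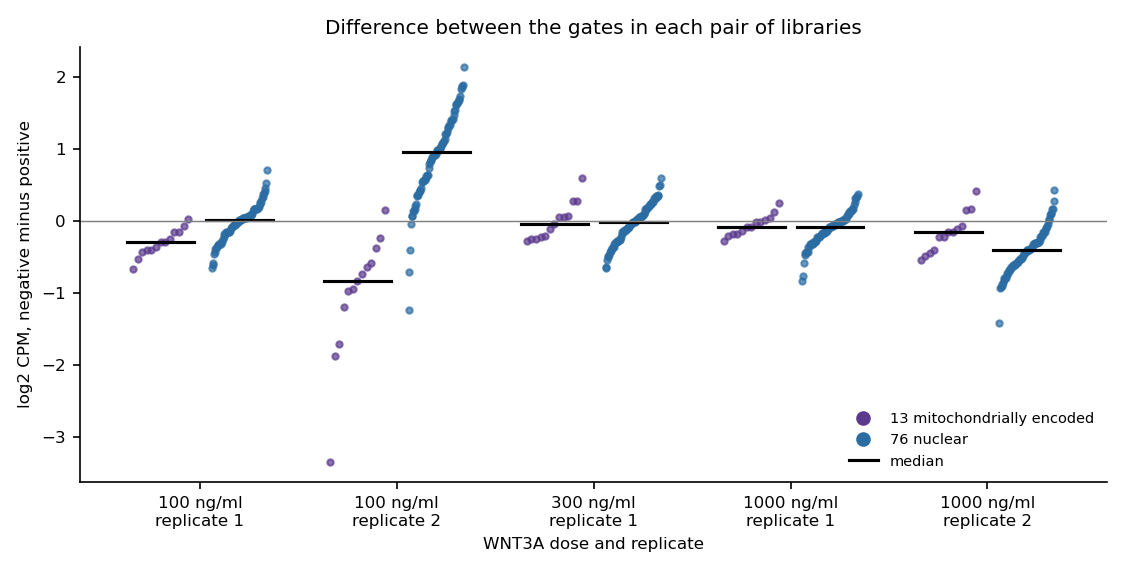
Difference in log2 CPM, SOX2-negative minus SOX2-positive, in each of the 5 pairs of libraries from the same colonies, with 1 point for each of 13 mitochondrial (purple) and 76 nuclear (blue) members, ordered by value, and black bars at the medians. In replicate 2 at 100 ng/ml the medians part to -0.83 and 0.95, and in the other pairs both lie between -0.41 and 0.01.

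Libraries of the 2 gates at the replicated doses did not overlap for 26.6% of all genes. Among mitochondrial members this held for 2 of 13 (15.4%), MT-CO1 and MT-ND5, both lower in SOX2-negative cells. Among nuclear members it held for 5 of 76 (6.58%).

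The second comparison set SOX2-positive cells of both replicated doses against control. The control labels name no sort gate, so treatment, sorting and the choice of gate cannot be told apart here. No member was called by edgeR, while 7.81% of all genes were. At an unadjusted p under 0.05 there were 3 mitochondrial and 3 nuclear members, beside 3581 of 17047 genes. DESeq2 called 1 member, MT-CO1, beside 12.2% of all genes, and limma-trend 0, beside 8.8%. All 13 mitochondrial members lay above 0, with a median log2 fold change of 0.41, against a median of -0.11 for nuclear members and 0.01 for all genes. The mitochondrial median rested on the controls, and was 0.82 without control replicate 1 and 0.12 without control replicate 2. Of 76 nuclear members, 31 lay above 0 and 45 below.

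MT-CO1 came closest, with a log2 fold change of 0.67 ± 0.19 (edgeR adjusted p = 0.054), and each of the 5 SOX2-positive libraries was above both controls. MT-CO2 had 0.53 ± 0.19 (edgeR adjusted p = 0.12), MT-ND4 0.59 ± 0.24 (edgeR adjusted p = 0.18) and MT-ND2 0.52 ± 0.26 (edgeR adjusted p = 0.28). For these 4 genes the libraries did not overlap. Control replicate 2 held the lowest value of the 12 libraries for 5 of 13 mitochondrial members, and the controls differed from each other, as in 2796 and 1538 CPM for MT-ND1 or 264 and 93.9 CPM for MT-ND4L. Libraries did not overlap for 30.8% of mitochondrial members, 40.8% of nuclear members and 44.7% of all genes, so this count did not set the members apart.

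All 4 members of complex II lay above 0 in SOX2-positive cells, with a median of 0.29. SDHA had 0.44 ± 0.20 (edgeR adjusted p = 0.25), SDHB 0.36 ± 0.19, SDHD, a membrane anchor, 0.23 ± 0.17 and SDHC 0.14 ± 0.15. The summed complex II CPM was 246 and 259 in control and 292 to 315 in the SOX2-positive libraries, with no overlap. NDUFA6 of complex I lay furthest below control, at -0.55 ± 0.21 (edgeR adjusted p = 0.15). A fit on the control and SOX2-positive libraries alone called 7 members, with MT-CO1, MT-CO2 and SDHA higher and NDUFA6, NDUFA11, NDUFB11 and NDUFS6 lower, beside 20.7% of all genes. Without either SOX2-negative library at 100 ng/ml, which are not in this contrast but feed the estimate of the spread, the same 3 were called, MT-CO1 and SDHA higher and NDUFA6 lower, beside 14.2% and 14.4% of all genes.

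The third comparison set SOX2-negative cells against the same controls, with the same limit on treatment, sorting and gate. No member was called by edgeR, against 22.5% of all genes. At an unadjusted p under 0.05 there were 1 mitochondrial and 4 nuclear members, beside 5925 of 17047 genes. DESeq2 and limma-trend each called 0 members, beside 26.9% and 24% of all genes. The medians were 0.08 for mitochondrial members, 0.04 for nuclear members and 0.03 for all genes. The mitochondrial median was 0.45 without control replicate 1 and -0.28 without control replicate 2. The nuclear median was 0.19 without replicate 1 and -0.17 without replicate 2 of the SOX2-negative cells at 100 ng/ml, so both signs turned with 1 library. The smallest adjusted p was that of NDUFA9, a complex I subunit, at -0.53 ± 0.20 (edgeR adjusted p = 0.08). MT-CO2 had 0.44 ± 0.18 (edgeR adjusted p = 0.12) and NDUFA5 -0.49 ± 0.21 (edgeR adjusted p = 0.12). Libraries did not overlap for 41% of all genes, 7.69% of mitochondrial and 7.89% of nuclear members.

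Without replicate 2 of the SOX2-negative cells at 100 ng/ml, 6 nuclear members were called lower than control: ATP5F1B, ATP5MC1, ATP5MC2 and ATP5PB of complex V, NDUFA9 of complex I and UQCRH, the hinge protein of complex III. In that fit 27.7% of all genes were called. Without replicate 1 of that group, 9 others were higher, NDUFC2 among them, and NDUFA5 and NDUFS1 were lower, beside 35.9% of all genes. No member was called in both of these fits.

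Dose was compared as 1000 against 100 ng/ml of WNT3A. Within SOX2-positive cells edgeR called 0% of all genes and 0 members, with 293 genes and 0 members at an unadjusted p under 0.05, 5 genes and 0 members by DESeq2, and 0 genes by limma-trend. The mitochondrial median was -0.10 and the nuclear median 0.08, and no member's log2 fold change was outside -0.27 to 0.36. MT-CO1 had -0.02 ± 0.21, a difference smaller than its error.

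Within SOX2-negative cells edgeR also called 0% of all genes and 0 members, yet the estimates were wider. At an unadjusted p under 0.05 there were 3107 genes, 1 mitochondrial member and 45 nuclear members. Of 76 nuclear members, 73 lay below 0, with a median of -0.70, and the mitochondrial median was 0.45. The medians were -0.68 for complex I, -0.32 for II, -0.78 for III, -0.86 for IV and -0.63 for V. The cytosolic ribosomal protein genes had a median of -0.77, and 66 of 82 had an unadjusted p under 0.05. limma-trend called 0 genes. DESeq2 called 423 genes, among them 10 nuclear members, all lower at 1000 ng/ml: ATP5F1D, ATP5MC1, ATP5ME, COX5B, COX7A2, NDUFA2, NDUFA4, NDUFA11, NDUFA13 and NDUFB11.

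The library that stood apart is 1 of the 2 libraries of the 100 ng/ml group here. Without it, the nuclear median went from -0.70 to -0.28, and the mitochondrial median from 0.45 to 0.22, with 0 members called. Without replicate 1 of that group they were -0.98 and 0.84, and 61 members were called, 7 higher and 54 lower, beside 33.7% of all genes. As 1 example, ATP5MC1, which DESeq2 called for dose, was at 23.5 and 53.6 CPM at 100 ng/ml. It was at 21.4 CPM at 300 ng/ml, and at 18.7 and 15 CPM at 1000 ng/ml. Its values lay in falling order of dose, and replicate 1 at 100 ng/ml lay closer to the 300 ng/ml library than to its own repeat. With all libraries, 3 of 76 nuclear members lay above 0 instead. Mean NDUFA5, for instance, was 31.6 CPM at 100 ng/ml, 34.9 CPM in the 300 ng/ml library and 38.4 CPM at 1000 ng/ml.

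The difference of the dose effect between the gates gave 0% of all genes and 0 members by edgeR, with 1349 genes and 26 nuclear members at an unadjusted p under 0.05. DESeq2 called 15 genes and 0 members, and limma-trend 0 genes. The nuclear median was -0.76 and the mitochondrial median 0.43. Without the library that stood apart the medians were -0.35 and 0.35 with 0 members called. Without replicate 1 of its group they were -1.06 and 0.78, and 52 members were called beside 22.3% of all genes.

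The promoters of the nuclear members were searched for motifs of 3 factors known to bind at respiratory genes: NRF1 (GCGCA and GCGC with any 1 base between them), GABPA (CCGGAAG) and YY1 (AAGATG followed at once by GCGG). Both strands were read from 250 bases before to 50 after the RefSeq start (GRCh38.p14). An entry was found for 63 of 77 nuclear members. The NRF1 letters stood in 16 (25.4%, against 6.28% of 27305 promoters), the GABPA letters in 20 (31.7% against 10.7%) and the YY1 letters in 7 (11.1% against 1.28%). Either NRF1 or GABPA stood in 33 (52.4% against 15.7%). The 150 bases before the start are shown for UQCR11, a small complex III subunit and an example with 2 matches of each of NRF1 and GABPA, and for ATP5F1E, the nuclear member with the highest gate difference, which has none. Both are on the minus strand and are written 5′ to 3′ with motif matches in capitals, for UQCR11 from chr19:1605463-1605612 and for ATP5F1E from chr20:59032336-59032485:

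UQCR11: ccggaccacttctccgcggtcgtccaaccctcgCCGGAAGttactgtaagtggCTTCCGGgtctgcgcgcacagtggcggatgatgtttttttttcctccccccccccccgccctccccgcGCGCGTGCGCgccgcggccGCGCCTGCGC
ATP5F1E: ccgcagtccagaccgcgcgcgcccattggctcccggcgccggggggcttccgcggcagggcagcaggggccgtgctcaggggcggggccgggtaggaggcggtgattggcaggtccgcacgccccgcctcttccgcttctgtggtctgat

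A match describes letters in this window and not a bound factor. Of the genes of these factors, none was called between the gates. The log2 fold change was -0.10 ± 0.17 for NRF1, -0.12 ± 0.27 for GABPA and -0.15 ± 0.13 for YY1. GABPA was at 21.4 CPM in the library that stood apart and at 58.9 to 74.8 CPM in the other SOX2-negative libraries. In SOX2-positive libraries it was at 55.7 to 60.6 CPM.

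Genes that act around the pathway were counted from lists. Of the fits that left out 1 library, only the one without the library that stood apart is given for their calls. Whether a call held in the other such fits is not reported here. Among 7 tested subunits outside the rule, 1 was called between the gates (14.3%, beside 24% of all genes). That was COX6B2, a testis-type complex IV subunit, which fell. It was at 14.1 and 10.4 CPM in control, 3.88 to 13.4 CPM in SOX2-positive and 0.659 to 2.14 CPM in SOX2-negative libraries, a log2 fold change of -2.83 ± 0.37 (edgeR adjusted p = 0.0003). The carriers CYC1 and CYCS, a complex III cytochrome and cytochrome c, did not pass. The log2 fold change of COX6B2 was -2.97 without the library that stood apart. Of 46 assembly factors, which help to build the complexes, 1 rose (COX16, 0.62) and 2 fell (COX10, -0.48, and NDUFAF7, -1.05). They were 6.52% of the list, below the 24% of all genes. The calls of COX16 and COX10 were lost without that library. NDUFAF7, a methyltransferase for complex I, was at 35 and 28.5 CPM in control, 37.8 to 46.9 CPM in SOX2-positive and 16.6 to 23.9 CPM in SOX2-negative libraries, without overlap.

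Of 25 tested genes that transcribe mitochondrial DNA or handle its RNA, 5 fell between the gates and none rose. They were LRPPRC, which stabilises mitochondrial mRNAs, at -0.63, the RNA-binding proteins FASTKD1 (-0.56), FASTKD2 (-0.49) and FASTKD3 (-0.66), and MTERF3 (-0.57). LRPPRC was at 322 and 328 CPM in control, 319 to 416 CPM in SOX2-positive and 206 to 297 CPM in SOX2-negative libraries (edgeR adjusted p = 0.014). Without the library that stood apart, LRPPRC and MTERF3 were still called and the 3 FASTKD genes were not. The list's share of 20% was near the 24% of all genes. POLRMT, the mitochondrial RNA polymerase (0.07 ± 0.20), and TFAM, which packages and transcribes mitochondrial DNA (-0.25 ± 0.20), did not pass. Among 10 genes of mitochondrial DNA replication, 1 fell (10%, MGME1 at -0.48).

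Of 11 regulators of mitochondrial biogenesis, 1 rose and 2 fell between the gates (27.3%, near the 24% of all genes). Against control, 1 was called in SOX2-positive cells (9.09%, beside 7.81%) and 2 in SOX2-negative cells (18.2%, beside 22.5%). PPARGC1B, a coactivator of respiratory genes, was at 11.7 and 10.4 CPM in control, 19.1 to 21.4 CPM in SOX2-positive and 1.97 to 5.32 CPM in SOX2-negative libraries, with no overlap among the 3 kinds of cells. It fell by 2.48 ± 0.20 on the log2 scale between the gates (edgeR adjusted p = 1e-05), rose by 0.87 from control in SOX2-positive cells (edgeR adjusted p = 0.045) and fell by 1.61 from control in SOX2-negative cells. PPRC1, a related coactivator, fell by 0.74 between the gates. ESRRG, a nuclear receptor, rose by 2.23, from 1.84 to 3.26 CPM in SOX2-positive to 4.49 to 24.7 CPM in SOX2-negative libraries, with control at 7.42 and 7.1 CPM. All 3 were also called without the library that stood apart.

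In the supply of fuel, none of 14 tricarboxylic acid cycle genes passed edgeR's test between the gates, beside 24% of all genes. At an unadjusted p under 0.05 there were 2, beside 6151 of 17047 genes. IDH3A and SUCLG2, enzymes of that cycle, were higher than control in both gates. IDH3A was at 13.5 and 10.8 CPM in control, 23.1 to 28.8 CPM in SOX2-positive and 19.9 to 23.8 CPM in SOX2-negative libraries (log2 fold changes 1.01 and 0.89). CS, which makes citrate, fell by 0.50 from control in SOX2-negative cells. These are 2 of 14 called in SOX2-positive cells (14.3%, beside 7.81% of all genes) and 3 of 14 in SOX2-negative cells (21.4%, beside 22.5%). Of 11 tested genes of pyruvate entry, 3 were called between the gates (27.3%, near the 24% of all genes). Against control, 1 was called in SOX2-positive cells (9.09%, beside 7.81%) and 2 in SOX2-negative cells (18.2%, beside 22.5%). Among these 11, PDK1, which inhibits pyruvate dehydrogenase, was at 12.4 CPM in both controls. It was at 72.1 to 90.6 CPM in SOX2-positive and 35.7 to 80.2 CPM in SOX2-negative libraries. Against control it rose by 2.70 in SOX2-positive and 2.08 in SOX2-negative cells, and between the gates it fell by 0.62. Its relative PDK3 fell by 1.07 between the gates, and MPC2, a subunit of the pyruvate carrier, rose by 0.81. These 3 calls between the gates held without the library that stood apart.

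Against the shared controls, 0 of 46 assembly factors were called by edgeR in SOX2-positive cells, beside 7.81% of all genes. At an unadjusted p under 0.05 there were 5, beside 3581 of 17047 genes. In SOX2-negative cells 2 rose (NDUFAF5, 1.04, and SDHAF4, 1.17) and 2 fell (COA7, -1.08, and NDUFAF7, -0.62). These were 8.7% of the list, beside 22.5% of all genes. Among the 25 genes for mitochondrial DNA transcription and RNA handling, 0 were called in SOX2-positive cells (0 at an unadjusted p under 0.05). MTERF3 (-0.70) and SLIRP, the partner of LRPPRC (-0.59), fell in SOX2-negative cells, 8% of that list. COX6B2 fell by 3.26 from control in SOX2-negative cells. These calls against control also held without the library that stood apart.

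The members varied over the 12 libraries about as much as they varied between replicates. The median SD of log2 CPM over all libraries was 0.34 for mitochondrial and 0.33 for nuclear members, and between replicates of a group it was 0.34 and 0.29. For all genes these values were 0.46 and 0.34.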

How the data were processed

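RNA of 12 libraries in 7 groups was selected by poly-T beads, copied from random hexamers and sequenced as 150-base read pairs, per the labels' protocols. The deposited table holds estimated counts per gene, not scaled between libraries, and the submitters' processing notes name Salmon and GRCh38. The Salmon version, the annotation, the bias settings and the strand setting are not given in the sources used here, so overlapping and antisense genes cannot be told apart. Library totals were 16474856 to 28079048 estimated counts, and every row has a symbol.

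The estimated counts were rounded, and the rows of the 1034 symbols on more than 1 of the 37951 identifiers were summed. Genes passed filterByExpr by group (minimum count 10, minimum total 15), were scaled by TMM (factors 0.899 to 1.04) and were tested in edgeR 4.0.16 (R 4.3.3) with glmQLFit and glmQLFTest, two-sided. A model with 7 group means left 5 residual degrees of freedom, with a prior of 5.61. Benjamini-Hochberg adjustment ran over 17047 genes with a threshold of 0.05. Gate comparisons and those with control average 100 and 1000 ng/ml, and the 300 ng/ml libraries feed only the spread. The titles of the samples give the group and the replicate number. The alternatives were DESeq2 1.42.0, limma-trend (limma 3.58.1, log2 CPM with a prior count of 2), RLE size factors, library totals without mitochondrial rows, no filter, identifiers apart, all 3 doses averaged, only the compared groups, a replicate block and each library left out. The scripts were tested on simulated data.

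Same-numbered libraries came from the same repeat, and both gates of a dose from the same colonies, per the labels' protocols, so the numbers pair the libraries. Deviations of same-numbered libraries from their group means correlated across genes at -0.06 to 0.223 over the 10 pairs of groups. Replicates differed by more than sampling noise (chi-square per degree of freedom 21.7 to 134), so none was counted as 1 library.

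Lengths, GC content and coordinates come from GENCODE 29 (GRCh38; 35003 of the identifiers found), and promoters from RefSeq on GRCh38.p14. Plots were drawn with matplotlib 3.10.9. The members and lists were chosen with earlier results of these data known. The rule for names took the mitochondrial members, up to 10 called nuclear members per direction and comparison, the nuclear members of highest and lowest mean CPM in each complex, ATP5MC1 to ATP5MC3 and up to 6 called genes per list and comparison. Other members were named after their values were seen. Lists were those of subunits outside the rule, assembly, mitochondrial DNA transcription and replication, biogenesis, the tricarboxylic acid cycle, pyruvate entry, mitochondrial and cytosolic ribosomal proteins, nuclear copies of mitochondrial genes, histones and cell type markers. Mitochondrial rRNA and tRNA were not analysed here.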

Additional observations from a re-analysis of the deposited data

How the results depend on the processing

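Alternatives changed the counts of called members more than their directions. Between the gates, 1 mitochondrial and 3 nuclear members were called. The mitochondrial count was 0 with the 3 doses averaged, with identifiers apart and with limma-trend, 2 with DESeq2 and with the replicate block (MT-ND1 was added), and 6 with no filter on low counts, where 5 nuclear members were called. The replicate block, with the libraries paired by their number, changed no other call of a member in the 6 comparisons. Against control in SOX2-positive cells, 0 members became 1 mitochondrial with DESeq2, 3 mitochondrial with no filter, and 2 mitochondrial with 5 nuclear on the compared groups alone. For dose in SOX2-negative cells DESeq2 called 10 nuclear members and no filter 2 mitochondrial and 31 nuclear. For the difference between gates no filter called 1 mitochondrial and 3 nuclear. Leaving out 1 library gave 0 to 6 mitochondrial and 0 to 25 nuclear calls between the gates, 0 to 1 and 0 to 2 for SOX2-positive cells against control, 0 and 0 to 11 for SOX2-negative cells against control, 0 to 5 and 0 to 56 for dose in SOX2-negative cells, and 0 to 4 and 0 to 48 for the difference between gates. Over all genes the last 2 comparisons gave 0 to 5739 and 0 to 3795 calls in the same fits, the highest without replicate 1 of the SOX2-negative cells at 100 ng/ml. The log2 ratio of the sums moved over 0.49 to 1.41 for dose in SOX2-negative cells and over 0.58 to 1.51 for its difference between gates. The log2 ratio of median levels per length, 5.71, was 6.51 with the union of exons and 4.86 with the median transcript length. ATP5F1E and NDUFA5 were called in 9 of 9 alternatives that kept every library, NDUFC2 in 7 and MT-CO1 in 6. Over all genes, the 1332 calls of SOX2-positive cells against control became 2077 with DESeq2, 2158 with no filter and 3243 on the compared groups alone. The 0 calls for dose became 5, 423 and 15 with DESeq2 and 107, 1551 and 308 with no filter, in SOX2-positive cells, in SOX2-negative cells and for their difference. The cause of these changes was not tested. With 2 libraries per group, 1 library decides many calls.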

Other observations

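The genes for the ribosomes of the mitochondria, which translate the mRNAs of the 13 mitochondrial genes, moved little between the gates. Of 78 mitoribosomal protein genes, 1 rose and 4 fell by edgeR's test (6.41%, beside 24% of all genes), with a median log2 fold change of 0.02. They summed to 4946 CPM in replicate 2 of the SOX2-negative cells at 100 ng/ml and to 2802 to 3669 CPM in the other 11 libraries. The cytosolic ribosomal protein genes had 1 of 82 lower between the gates (1.22%, median -0.02). Against control, 5 of 82 were called in SOX2-negative cells, 1 higher and 4 lower (6.1%, beside 22.5% of all genes, median -0.29). In SOX2-positive cells 0 were called, beside 7.81% of all genes (median -0.25). There, 1 had an unadjusted p under 0.05, beside 3581 of 17047 genes. Without replicate 2 of the SOX2-negative cells at 100 ng/ml these medians were -0.27 between the gates, -0.54 in SOX2-negative and -0.25 in SOX2-positive cells against control. The replication-dependent histones, most of whose mRNAs lack a poly-A tail, summed to 48.2 to 105 CPM.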
